A study of Caenorhabditis elegans with 2 samples.

Results

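Nuclear hormone receptor genes of Caenorhabditis elegans were examined for listed binding of the GFP-tagged protein F22D6.2 near their 5' ends. They were chosen by name: 274 of the 19985 protein-coding genes in the Ensembl WBcel235 models are called nhr followed by a number, or are daf-12, odr-7, unc-55, fax-1 or sex-1. Chromatin immunoprecipitation and sequencing (ChIP-seq) was done on whole young adult hermaphrodites, in 1 group of 2 biological replicates with no other condition. The worms were of strain OP399, unc-119(tm4063) III; wgIs399, in which a stably integrated transgene expresses F22D6.2 with a GFP-FLAG tag at its C-terminus. They were collected 67 hours after synchronization at the starved L1 stage, and an anti-GFP antibody was used for the immunoprecipitation. The sources used here do not give the promoter or the copy number of the transgene, and whole animals mix all tissues. F22D6.2 appears under the symbol mstr-1 in the annotation.

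Nuclear hormone receptors are transcription factors with a DNA-binding domain of a pair of zinc fingers and, in most, a domain that can bind a small lipophilic ligand such as a steroid or a fatty acid. The family has expanded greatly in nematodes, mostly through genes related to the vertebrate fatty acid receptor HNF4, and many of these genes lie in tandem arrays on chromosome V. A smaller number have orthologues in insects and vertebrates and act in moulting, neuron identity, sterol signalling or metabolism.

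Each gene was described by the highest signal value among summits within 500 bp of its 5' end. The signal value is the authors' own value for a region over control, on a scale that was not given, and it is compared here only within a list. The pooled list, made from both replicates, held 26002 regions with a median signal value of 22.2. The list of replicate 1 held 25000 regions with a median of 13.8, and that of replicate 2 held 23268 with a median of 14.2. These lists also hold background regions, so a listed gene is not thereby called bound. The thresholded set held 798 regions, and they were the 798 highest of the pooled list. The number of reads behind the lists is unknown.

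Of the 274 receptor genes, 102 (37.2%) had a summit in the pooled list, against 30.2% of all 19985 protein-coding genes. In replicate 1 the count was 83 (30.3%), against 28.4% of all genes. In replicate 2 it was 86 (31.4%), against 27.8%. A summit in both replicates was listed for 49 receptor genes (17.9%), against 16.1%. A thresholded summit was listed for 7 (2.55%), against 2.06%. At this window each share was above that of all genes. In the single replicates, in both replicates and in the thresholded set it was close to that of all genes. No test was run over genes, which are not replicates. Among listed genes, the median pooled signal value was 24.9 for receptor genes and 25.7 for all genes. In replicate 1 these medians were 15.9 and 15.4, and in replicate 2 they were 15.3 and 16. In each list these medians differed by less than 1 unit of signal value.

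The 7 receptor genes with a thresholded summit were nhr-68, nhr-35, nhr-47, nhr-57, nhr-135, nhr-119 and nhr-105. Their 101 bp around the highest pooled summit are shown, with those of the 2 cluster genes with the highest pooled values, because GAGAGA was found in most of the 7. Both cluster genes also hold GAGAGA, which is not typical of the clusters, where 4 of 43 summits (9.3%) do. Sequences are from the RefSeq copy of WBcel235 (ce11), read on the strand of the gene, and capitals mark GAGAGA on either strand.
nhr-68, chrV:11572992-11573092, plus strand: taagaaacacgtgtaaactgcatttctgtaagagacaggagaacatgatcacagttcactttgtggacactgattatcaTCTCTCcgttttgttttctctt
nhr-35, chrX:4532294-4532394, plus strand: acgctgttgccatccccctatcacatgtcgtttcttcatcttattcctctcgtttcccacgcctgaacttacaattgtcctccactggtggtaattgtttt
nhr-47, chrV:5505196-5505296, plus strand: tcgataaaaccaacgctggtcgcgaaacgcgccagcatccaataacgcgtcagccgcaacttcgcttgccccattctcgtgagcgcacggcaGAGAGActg
nhr-57, chrV:4131679-4131779, plus strand: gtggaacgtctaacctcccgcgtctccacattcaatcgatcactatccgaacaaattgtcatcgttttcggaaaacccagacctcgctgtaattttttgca
nhr-135, chrV:7093949-7094049, minus strand: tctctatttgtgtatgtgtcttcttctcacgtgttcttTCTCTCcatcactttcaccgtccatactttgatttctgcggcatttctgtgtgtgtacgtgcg
nhr-119, chrII:2801020-2801120, minus strand: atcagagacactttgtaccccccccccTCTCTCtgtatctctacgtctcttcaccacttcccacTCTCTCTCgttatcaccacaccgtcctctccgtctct
nhr-105, chrIV:7049706-7049806, plus strand: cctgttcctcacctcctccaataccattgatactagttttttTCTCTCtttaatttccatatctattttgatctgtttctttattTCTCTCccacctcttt
nhr-205, chrV:10081746-10081846, minus strand: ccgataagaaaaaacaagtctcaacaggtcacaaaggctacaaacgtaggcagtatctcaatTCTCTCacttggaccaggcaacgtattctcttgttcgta
nhr-203, chrV:459639-459739, plus strand: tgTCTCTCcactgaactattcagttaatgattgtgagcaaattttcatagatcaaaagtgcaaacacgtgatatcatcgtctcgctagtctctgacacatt

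The highest value belonged to nhr-68 (WBGene00003658, chrV:11573440-11575709, plus strand), whose product takes part with NHR-10 in switching on an alternative route of propionate breakdown when vitamin B12 is low. Its signal value was 262.3 in the pooled list, 125.5 in replicate 1 and 138.2 in replicate 2. The summit lay 398 bp upstream of the 5' end in the pooled list, 412 bp in replicate 1 and 393 bp in replicate 2. It ranked 65 among all pooled summits, 73 in replicate 1 and 63 in replicate 2, so both replicates placed it close to the same rank and position. The summit lay 52 bp from the 5' end of H12C20.7, a neighbour on the opposite strand, and the lists cannot tell which gene the site belongs to.

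A summit of like rank lay upstream of nhr-35 (WBGene00003628, chrX:4532691-4537546, plus strand). The signal value was 248.9 in the pooled list, 117.3 in replicate 1 and 131.2 in replicate 2, at ranks 75, 82 and 69. The summit lay 347, 367 and 348 bp upstream in these lists. No protein-coding 5' end other than its own lay within 500 bp, and the next protein-coding gene upstream lies 6154 bp away. The piRNA gene 21ur-11723 begins 393 bp away. Replicate 2 listed another summit of nhr-35, 149 bp upstream with a signal value of 39.6.

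At nhr-47 (WBGene00003637, chrV:5505253-5509956, plus strand) the highest summit lay almost on the 5' end. Its signal value was 123.0 in the pooled list, 62.4 in replicate 1 and 58.9 in replicate 2, at ranks 303, 314 and 400. The summit lay 7 bp upstream in the pooled list, 14 bp upstream in replicate 1 and 11 bp downstream in replicate 2. It fell inside the non-coding RNA gene C24G6.10 on the opposite strand and 389 bp from the 5' end of dnj-19, a DnaJ co-chaperone gene.

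For nhr-57 (WBGene00003647, chrV:4131889-4135102, plus strand), a gene induced under low oxygen through HIF-1, the replicates differed more. The signal value was 111.7 in the pooled list, 37.7 in replicate 1 and 73.5 in replicate 2. Its rank was 394 in the pooled list, 1060 in replicate 1 and 243 in replicate 2, so replicate 1 alone would have left it outside the top 798. The summit lay 160, 113 and 186 bp upstream.

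The other 3 thresholded genes also had their highest summits upstream. For nhr-135 (WBGene00003725, chrV:7091714-7093770, minus strand) the signal value was 109.8 in the pooled list, 53.3 in replicate 1 and 59.8 in replicate 2, with the pooled summit 229 bp upstream. For nhr-119 (WBGene00003709, chrII:2794016-2800600, minus strand) it was 96.5, 55.3 and 44.3, with the pooled summit 470 bp upstream. For nhr-105 (WBGene00003695, chrIV:7050156-7053450, plus strand) it was 95.7, 46 and 52.6, with the pooled summit 400 bp upstream and those of replicates 1 and 2 at 268 and 387 bp. The ranks were 415, 474 and 381 for nhr-135 and 540, 427 and 793 for nhr-119. Of the 7 genes, nhr-105 alone had another thresholded summit, 182 bp upstream with a signal value of 91, and replicate 2 listed a matching one 186 bp upstream at 41.9. All 7 highest summits lay upstream, against 366 of 411 (89.1%) for all protein-coding genes with a thresholded summit.

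**Figure D1:**
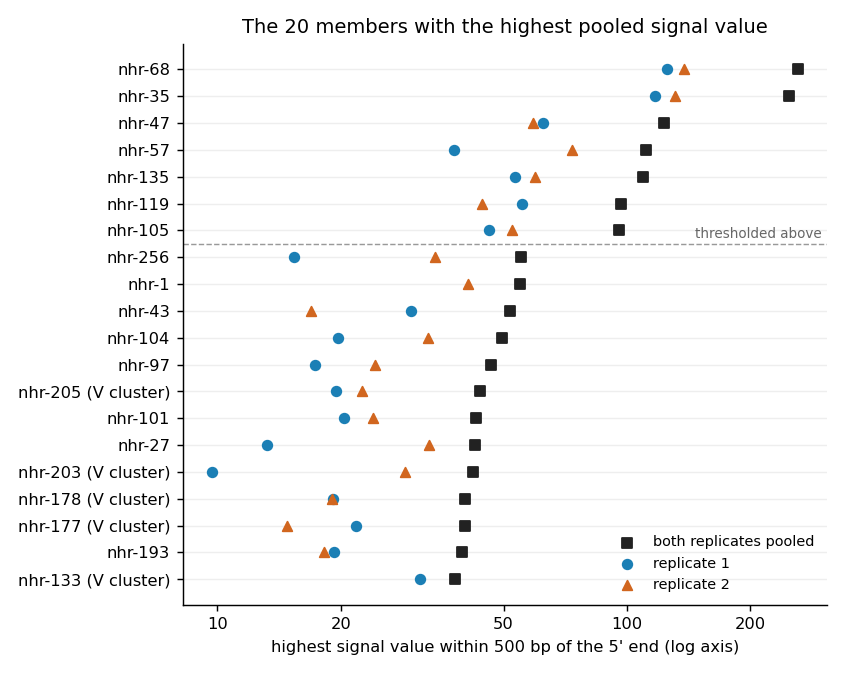
Signal values (horizontal axis, log scale, the authors' peak caller's value) of the 20 receptor genes (members) with the highest pooled values, in the pooled list and in both replicate lists. The pooled values fall from 262.3 at nhr-68 and 248.9 at nhr-35 to 95.7 at nhr-105, and then to 55.1 at nhr-256.

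Below the thresholded genes the pooled values dropped from 95.7 at nhr-105 to 55.1 at nhr-256. The signal value of nhr-256, on chromosome V outside the clusters, was 55.1 in the pooled list, 15.4 in replicate 1 and 34 in replicate 2. For nhr-1, on the X chromosome, it was 54.8 in the pooled list and 41 in replicate 2, and replicate 1 listed no summit. For nhr-43 it was 51.8, 29.7 and 16.9. By rank within its own list, nhr-43 stood at 1823 in replicate 1 and 7770 in replicate 2. For nhr-256 the replicates' highest summits were different ones, 247 bp and 57 bp upstream. For nhr-104 the values were 49.5, 19.6 and 32.8. For nhr-97 they were 46.6, 17.3 and 24.3. For nhr-27 they were 42.5, 13.2 and 32.8, but the highest summit lay 90 bp downstream in replicate 1 and 200 bp upstream in replicate 2, so these are different summits. All 7 thresholded genes ranked within the first 1060 in both replicates. They were chosen from the highest regions of the pooled list, which was made from these same replicates. High ranks in both are therefore largely built in.

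Another 3 receptor genes had a thresholded summit outside the 500 bp window and within 1000 bp. The share of all protein-coding genes at that distance was not counted, so this count has no background. That of nhr-142 lay 503 bp upstream with a signal value of 108.7. That of nhr-79 lay 658 bp upstream with 288.9, above any summit inside the window of a receptor gene. That of nhr-14, a relative of HNF4, lay 852 bp downstream of the 5' end with 117.7.

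Chromosome V held 167 of the receptor genes. Of these, 112 fell into 16 clusters, defined as runs of at least 3 receptor genes whose neighbouring 5' ends lay within 50 kb. The other 162 genes were elsewhere: 55 on chromosome V outside the clusters and 107 on other chromosomes. A pooled summit was listed for 43 cluster genes (38.4%) and 59 genes elsewhere (36.4%). In replicate 1 the counts were 33 (29.5%) and 50 (30.9%), and in replicate 2 they were 32 (28.6%) and 54 (33.3%). The pooled list put the clusters slightly higher and both replicate lists put them lower, so the share of listed genes did not separate them. A summit in both replicates was listed for 19 cluster genes (17.0%) and 30 genes elsewhere (18.5%).

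At the 50 kb gap the clusters held none of the 7 thresholded genes and 112 of the 274 receptor genes. This count depends on the gap, an alternative applied to it after its values were seen. At 20 kb it was also 0 of 102 cluster genes, and at 100 kb it was 2 of 138, nhr-57 and nhr-135, with 5 of 136 elsewhere. Of the 162 genes elsewhere, 7 (4.32%) had a thresholded summit, 4 of them among the 55 chromosome V genes outside the clusters (7.27%) and 3 among the 107 on other chromosomes (2.80%). Beside these, 2.06% of all protein-coding genes had one. In the pooled list the highest cluster gene was nhr-205 at 43.8 (at a 100 kb gap, nhr-57 at 111.7), and 12 of the 59 listed genes elsewhere were above it. In replicate 1 the highest was nhr-133 at 31.3, with 8 of 50 above it. In replicate 2 it was nhr-203 at 28.7, with 12 of 54 above it. Each of these cutoffs is the clusters' own highest value, so no cluster gene could be above it. The share of all listed protein-coding genes above these cutoffs was not counted, so the counts draw no contrast. The medians were closer than the upper ends. They were 24.6 in the clusters and 25.1 elsewhere in the pooled list, 15.8 and 16.6 in replicate 1, and 14.8 and 15.7 in replicate 2.

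**Figure D2:**
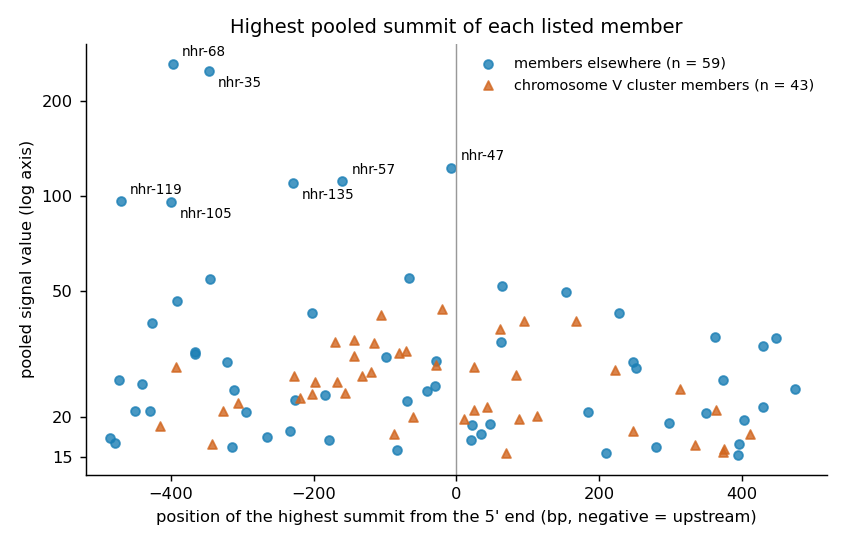
Position of the highest pooled summit of each listed receptor gene relative to its 5' end (horizontal axis, bp, negative is upstream) against its pooled signal value (vertical axis, log scale), with 43 chromosome V cluster genes as triangles and 59 genes elsewhere as circles. The 7 named points, from 95.7 to 262.3, are all upstream, and with clusters drawn at a 50 kb gap they are genes elsewhere and no cluster gene is above 43.8. At a 100 kb gap nhr-57 and nhr-135 would be cluster genes.

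The genes that share the clusters' stretches but are not receptor genes gave another comparison. Of 132 such protein-coding genes, 24 (18.2%) had a pooled summit and none had a thresholded one. Of all 4827 protein-coding genes of chromosome V that are not receptor genes, these 132 included, 1272 (26.4%) had a pooled summit and 80 (1.66%) a thresholded one. In both replicates a summit was listed for 13 of the 132 (9.85%) and 650 of the 4827 (13.5%). Receptor genes in the clusters were listed more often than these neighbours in the pooled list and in both replicate lists. In replicate 1 the shares were 29.5% for cluster receptor genes and 19.7% for the neighbours, and in replicate 2 they were 28.6% and 16.7%. The distance to the next protein-coding gene upstream was shorter in the clusters, with a median of 752 bp for listed and 823 bp for unlisted receptor genes. Elsewhere it was 3760 bp for listed and 2178 bp for unlisted genes.

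**Figure D3:**
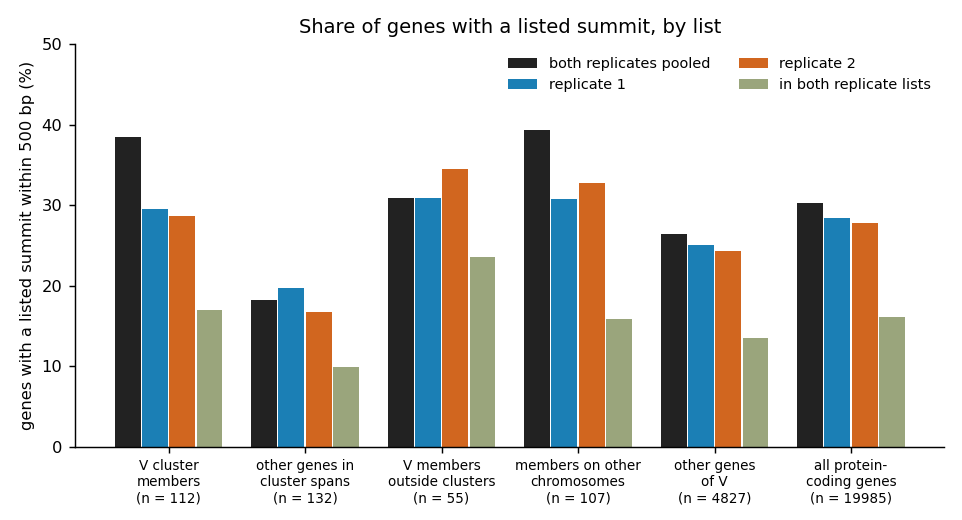
Percent of genes with a summit within 500 bp of the 5' end (vertical axis) in the pooled list, each replicate list and both replicate lists, for receptor genes (members) in and outside the chromosome V clusters and for other genes. The pooled bars stand at 38.4% for cluster members, 18.2% for other genes in the cluster spans, 30.9% for chromosome V members outside clusters, 39.3% for members on other chromosomes, 26.4% for chromosome V genes that are not members and 30.2% for all genes.

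The clusters differed among themselves. The largest by count, both with 19 receptor genes, lie between 392628 and 539460 and between 2192485 and 2294877 on chromosome V, spanning 146.8 kb and 102.4 kb. In each, 9 genes were listed in the pooled list and 5 in both replicates. The cluster from 1607953 to 1629432 held 7 receptor genes, and 3 of them were in the pooled list and both replicate lists. The cluster from 10070641 to 10084049 held 3, of which 2 were listed in both replicates. At the other end, the cluster of 8 genes from 15674007 to 15702363 had no pooled summit and 1 in replicate 1. The cluster of 3 from 3535360 to 3543444 had none in any list.

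**Figure D4:**
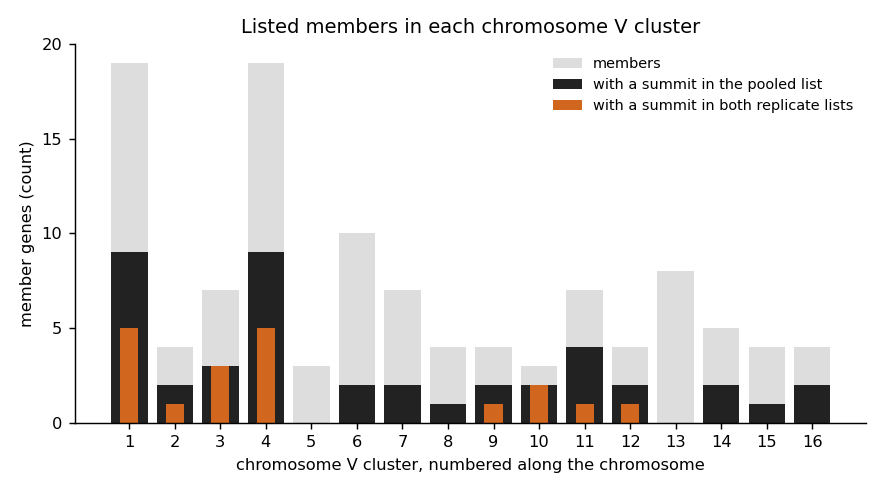
Number of receptor genes (vertical axis) in each of the 16 chromosome V clusters in order along the chromosome, with those listed in the pooled list (black) and in both replicate lists (orange) drawn inside the bar of all (grey). Clusters 1 and 4 have 19 genes each, 9 of them with a pooled summit, and clusters 5 and 13 have no pooled summit.

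The 5 cluster genes with the highest pooled values had their highest pooled summits within 168 bp of the 5' end. For nhr-205 the signal value was 43.8 in the pooled list, 19.5 in replicate 1 and 22.5 in replicate 2, with the pooled summit 20 bp upstream. For nhr-203 it was 42.2, 9.71 and 28.7, with the pooled summit 106 bp upstream. Its rank was 24490 in replicate 1 and 2140 in replicate 2, an 11.4-fold difference, so replicate 1 placed it near the end of its list. For nhr-178 it was 40.2, 19.1 and 19.0, and for its neighbour nhr-177 it was 40.1, 21.9 and 14.8. For nhr-133 it was 38.1 in the pooled list and 31.3 in replicate 1, and replicate 2 listed no summit.

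Genes with known roles, 37 in all, were examined as a group, of which 15 (40.5%) were in the pooled list, against 30.2% of all protein-coding genes. In replicate 1 there were 13 (35.1%, against 28.4%), in replicate 2 there were 15 (40.5%, against 27.8%) and in both replicates 7 (18.9%, against 16.1%), which is close to the share of all genes. Of these, nhr-68 had a thresholded summit. Its partner gene nhr-10 had a signal value of 35.7 in the pooled list and 26.2 in replicate 2, and none in replicate 1. In fat metabolism, nhr-49, which drives fatty acid breakdown and desaturation, had 31.6, 22.7 and 14.9. Its partner nhr-80 was not in the pooled list and had 12.4 in replicate 1 and 19.0 in replicate 2. These were different summits, 272 bp upstream and 41 bp downstream of the 5' end. Of relatives of HNF4, nhr-64 had 34.6 in the pooled list and 27 in replicate 2, and nhr-69 had 13.4 in replicate 1 alone. For nhr-62, needed for the long life of worms on restricted diet, the value was 26.2 in the pooled list and 15.6 in replicate 1. For nhr-8, a receptor acting in sterol and xenobiotic handling, it was 16.9 in the pooled list and 10.9 in replicate 2. Apart from nhr-68, none of these genes reached 80.3, the lowest value of a thresholded region.

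Others of the 37 act in development, sex or neurons or have orthologues outside nematodes. For nhr-2, which acts in the embryo, the value was 30.9 in the pooled list, 16.4 in replicate 1 and 12 in replicate 2. For nhr-41 it was 22.6 in the pooled list and 15.9 in replicate 1, and for nhr-67, a relative of tailless, 13.8 in replicate 1 alone. The pooled values of nhr-2 and nhr-41 lay above the median of that list, 22.2. For nhr-23, the ROR relative needed for moulting, the value was 15.3 in the pooled list and 13.3 in replicate 1. For sex-1, which counts X chromosomes in the embryo, it was 16.9 in the pooled list and 13.2 in replicate 2. For fax-1, which sets interneuron identity, a value of 12 was listed in replicate 2 alone. Listed in no list were daf-12, the dafachronic acid receptor that controls dauer formation, odr-7, needed in the AWA olfactory neurons, and unc-55, which sets synapse pattern in the VD motor neurons. The same was true of nhr-25, the FTZ-F1 relative that acts in moulting, nhr-6, an NR4A relative, nhr-85, an E75 relative, and nhr-91, a GCNF relative. Being in no list says only that no summit was called within 500 bp, which held for 145 of the 274 receptor genes. The same was not counted for all protein-coding genes.

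Presence and position were then compared between the replicates over all receptor genes. Of the 129 receptor genes listed anywhere, 45 were in all 3 lists, 23 in the pooled list and replicate 1, 25 in the pooled list and replicate 2, and 9 in the pooled list alone. A further 4 were in both replicates and not in the pooled list, 11 in replicate 1 alone and 12 in replicate 2 alone, and 145 were in none. This overlap of the lists was counted for receptor genes alone. Whether it is like that of all protein-coding genes is therefore unknown. Of the 49 listed in both replicates, the highest summits lay within 100 bp of each other for 22 (44.9%), with a median distance of 120 bp. Across the same 49 genes, Spearman's rho of the signal values was 0.29. It was -0.22 across the 19 cluster genes and 0.51 across the 30 elsewhere. Within 100 bp lay 10 of the 19 (52.6%) and 12 of the 30 (40%), so the cluster genes had the higher share by position and the lower rho. The 30 include all 7 thresholded genes, which ranked high in both replicates, and the 19 include none. The rho values are therefore not of like sets, and rho without the thresholded genes was not computed. For 3176 other protein-coding genes listed in both replicates, 52.5% lay within 100 bp, the median distance was 91 bp and rho was 0.60. These correlations describe genes sharing the same libraries and control, and are not tests. For nhr-114, which protects worms from dietary metabolites, the value was 32.4 in replicate 1 and 12.3 in replicate 2, at different summits, 474 bp downstream and 104 bp upstream of the 5' end.

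Highest pooled summits of the 102 listed receptor genes lay upstream of the 5' end in 59 (57.8%), against 61.4% for all genes, with a median offset of -68 bp against -79 bp. In the clusters 24 of 43 (55.8%) lay upstream and elsewhere 35 of 59 (59.3%). The summit was intergenic for 55, in a coding exon for 18, in an untranslated exon for 11 and in an intron for 18. Of 43 cluster genes 12 had theirs in a coding exon, and of 59 genes elsewhere 6 did. These places were not counted for all protein-coding genes, and were not recounted under other windows or cluster definitions. For 5 genes, nhr-280, nhr-138, nhr-47, nhr-101 and nhr-68, the summit also lay within 500 bp of another protein-coding 5' end, and no summit was shared between a pair of receptor genes. For 2 genes, nhr-138 and nhr-193, it lay within 200 bp of a tRNA, snoRNA, snRNA or rRNA gene.

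In 101 bp around the highest pooled summit, GAGAGA on either strand was found at 5 of the 7 thresholded receptor genes (71.4%), those of nhr-68, nhr-47, nhr-135, nhr-119 and nhr-105. Over all 778 nuclear thresholded summits it was found in 170 (21.9%), and over all 25982 nuclear pooled summits in 2333 (8.98%). Both of these sets also hold summits that are not listed for any protein-coding gene. The share among thresholded summits listed for protein-coding genes was not counted, so the 5 of 7 has no like background. Of the 7 motifs searched, GAGAGA had the highest share at these 7 genes and was picked out for that reason. Of the 102 listed receptor genes 16 (15.7%) held it, 4 of 43 in the clusters (9.3%) and 12 of 59 elsewhere (20.3%). The 16 and the 12 both include the 5 thresholded genes, so these shares are not separate from the 5 of 7. For the highest summits of all protein-coding genes the share was 10.3%. The AGGTCA element, which many nuclear receptors bind, was found at 4 of the 102 (3.92%) and none of the 7, against 2.67% of all pooled summits and 3.47% of thresholded ones. GGTTCGA, the B box of tRNA genes, was found at none of the 102, against 1.32% of all pooled summits. Of the other motifs among the 7 searched, TATAAA was at 9.8% of the 102 and 12.3% of all pooled summits. TTTCGC was at 8.82% and 6.19%. CTGCGTC was at 2.94% and 2.24%. The run AAAAAA, whose letters can overlap those of TATAAA and, on the other strand, those of TTTCGC, was at 33.3% and 34.7%. At the highest summits of all protein-coding genes, a set more like the 102, AGGTCA was at 2.58%, GGTTCGA at 0.97% and TATAAA at 13%. There TTTCGC was at 7.76%, AAAAAA at 36.1% and CTGCGTC at 3.52%, which is above the share of the 102. A match is a description of the letters and not a site.

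Promoter windows, 250 bp before to 50 bp after the 5' end, also differed in letters. GAGAGA was in 83 of the 274 receptor windows (30.3%) and in 21.8% of all protein-coding ones. CTGCGTC was in 30 (10.9%), against 4.34% of all. Of the 112 cluster windows 19 (17%) held CTGCGTC, and of the 162 elsewhere 11 (6.79%). The 30 windows with CTGCGTC had a pooled summit listed for 17 (56.7%), and the 244 without it for 85 (34.8%). Over all nuclear protein-coding genes the same shares were 48.1% of 867 with CTGCGTC and 29.4% of 19106 without it, so windows with the motif were listed more often there too. Within the clusters these were 12 of 19 (63.2%) and 31 of 93 (33.3%), and elsewhere 5 of 11 (45.5%) and 54 of 151 (35.8%). For GAGAGA the shares were 39.8% of the 83 receptor genes with it and 36.1% of the 191 without, beside 35.6% and 28.6% over all genes. Its direction differed between the groups, with 33.3% against 40.5% in the clusters and 44% against 33% elsewhere. These splits by motif were chosen after the motif shares were seen. In the 101 bp around the highest pooled summit, CTGCGTC was at 3 of the 102 listed receptor genes (2.94%). It was at 1 of the 43 in the clusters (2.33%) and at 3.52% for all protein-coding genes. For most of the 17 listed genes with CTGCGTC in the promoter window, the motif was therefore not around the highest summit. TATAAA was in 29.6% of receptor windows, against 38% of all.

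Other genes of the receptor pathway were described from lists. Of 10 genes of dafachronic acid synthesis and sterol handling, 2 (20%) had a pooled summit, emb-8, a cytochrome P450 reductase gene, at 46.1, and ncr-1, a sterol transporter gene, at 17.4. The dafachronic acid synthesis gene daf-9 was not listed. Of 23 coregulator genes 11 (47.8%) were listed and 8 in both replicates, and mdt-26, a Mediator subunit gene, had a thresholded summit of 91.9 in the pooled list, 57.1 in replicate 1 and 39.0 in replicate 2. Of 25 metabolic and detoxification target genes 12 (48%) were listed and 10 in both replicates. Among them icl-1, which encodes the glyoxylate cycle enzymes, had a thresholded summit with 93.5 in the pooled list, 49.2 in replicate 1 and 71.4 in replicate 2. The propionate shunt gene acdh-1, a target of nhr-10 and nhr-68, had 55.9, 31.1 and 24.2. The 12 were unevenly spread over the list. Of its cyp genes, cyp-35C1 alone had a pooled summit. There was none for cyp-34A9, cyp-35A1, cyp-35A2, cyp-35A3, cyp-35A5 or cyp-35B1. The same held for fmo-2, pgp-14, cpt-5, lbp-8, ech-1.1 and hacd-1. Of its fat genes, fat-2, fat-5 and fat-6 were in the pooled list and fat-7 was not. Beside the shares of these lists, 30.2% of all protein-coding genes had a pooled summit. A summit in both replicates was listed for 16.1% of them.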

How the data were processed

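ChIP-seq of F22D6.2-GFP was analysed from 4 deposited peak lists on ce11, 1 for each of 2 replicates, 1 pooled and 1 thresholded. The 4 lists on ce10 were not used, since no annotation of that build was used here. Per the labels, both are biological replicates, and per the file descriptions deposited with them the lists came from the alignments with 1 shared control. Each region carries a signal value over the control, which the authors deposited on a scale that is not stated. The deposited −log10 q-value was not used to rank. The summit offset that the authors deposited was added to the start of each region to give the summit. Which aligner and caller were run, in which versions, and the cutoff of the irreproducible discovery rate are not given in the sources used here. Depth is unknown.

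Gene 5' ends came from Ensembl release 115 (WBcel235, the same assembly as ce11), and a gene was listed where a summit lay within 500 bp. Named genes were those with thresholded summits, the 20 highest, the 5 highest cluster genes, up to 3 with the largest rank difference between replicates and those with known roles. The genes and lists were chosen with earlier results of these data known. Python 3.11.15, pandas 2.3.3 and numpy 2.4.6 were used, and the joins were tested on simulated data. With 1 group, no test between conditions was possible, so results are counts, shares and medians. Of the names listed, daf-21, mdt-1.1, pqn-38 and cyp-34A4 were not matched.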

Additional observations from a re-analysis of the deposited data

How the results depend on the processing

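The window, the choice of 5' end, the list depth, the cluster definition and each replicate were varied, with 68 values within their limits, 28 moved and 12 of opposite sign. Within 250 bp, 61 receptor genes were in the pooled list, 4 had a thresholded summit (nhr-105, nhr-135, nhr-47 and nhr-57), 24 were in both replicates, 37 had the highest summit upstream and 29 of those listed were elsewhere. Within 1000 bp, 79 were in both replicates. In the pooled list there were 146 against 102 within 500 bp, with 61 against 43 in the clusters and 85 against 59 elsewhere. The highest summit was upstream for 86 against 59. These changes in the pooled list count among the 68, since the limit set for counts was wide. With signal values at or above the median of the list, 61 were in the pooled list, 4 were thresholded, 26 were in both replicates, 25 in the clusters and 36 elsewhere were listed. These alternatives were counted for receptor genes alone. Whether their shares stay above those of all protein-coding genes at other windows or depths was not tested. The median pooled signal value was 26.89 within 250 bp, 24.42 within 1000 bp, 26.03 at any transcript's 5' end, 31.55 above the list median and 26.03 with as many regions as the shorter list, and 15.32 to 15.91 in single replicates, which have their own scale. The difference in percent listed, clusters minus elsewhere, was 1.97 and became 10.67 within 250 bp. It changed sign at -1.46 (any transcript), -3.46 (gap of 100 kb), -3.32 (all of chromosome V), -0.86 (other chromosomes only) and -4.76 to -1.40 in single replicates. The difference in median signal value was -0.51 and became 3.02 (250 bp), 0.08 (1 summit per region), 1.26 (20 kb), 1.57 (100 kb), 2.02 (all of chromosome V) and 0.78 (other chromosomes only), all of opposite sign. It was -2.29 (1000 bp), -0.21 (nearest gene), -3.05 (any transcript), -5.13 (above the list median), -0.36 (shorter list) and -0.83 to -0.79 in single replicates. The count of thresholded cluster genes, varied after the data were seen, was 0 at 50 kb, 2 at 100 kb, 4 with all of chromosome V and 0 under the other alternatives. The cause was not tested, and neither difference has a stable direction. With the 798 highest summits of replicate 1, 6 receptor genes remained (nhr-57 was lost), and with those of replicate 2 there were 8 (nhr-142 was added). With each summit given to its nearest gene, 6 remained, since that of nhr-68 went to H12C20.7. Presence in both replicates has no value without a replicate. No paired analysis was possible because there was 1 group. Depth is unknown, so a gene in no list may lie below detection.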

Other observations

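By chromosome, the share of receptor genes with a pooled summit ranged from 6 of 24 (25%) on chromosome I to 7 of 15 (46.7%) on chromosome II. Of the other protein-coding genes there, 33.6% on chromosome I and 28.0% on chromosome II were listed. On chromosome III it was 3 of 8 (37.5%) against 37%, on chromosome IV 15 of 33 (45.5%) against 29.5%, and on the X chromosome 11 of 27 (40.7%) against 29.6%. In replicate 2 the share on chromosome II was 13.3% against 26.6%, the other way round from the pooled list. A summit in both replicates was listed for 1 of the 15 on chromosome II (6.67%), against 15.2% of the other genes there. On chromosome IV it was listed for 6 of the 33 (18.2%), against 15.3%. The receptor genes of chromosome V outside the clusters had a median pooled signal value of 29.8 where listed, and those of other chromosomes 23.8. Of the receptor genes not in the pooled list within 500 bp, 44 had a pooled summit farther out, within 1000 bp. The same was not counted for all protein-coding genes.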
